A study of Mus musculus with 24 samples.

Results

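The fat cell-linked miRNAs miR-193b, miR-365 and miR-378 were followed through mammary tumor progression in mice. They were taken by name from a table of read counts per miRNA, where the rows mir-193b, mir-365 and mir-378 are 3 of 510. All 3 had enough counts to be tested, together with 234 other miRNAs, 237 in all. The small RNA libraries came from whole mammary tumors of female MMTV-PyMT mice, the F1 offspring that carry 1 copy of the transgene on the FVB background, and from mammary glands of female FVB mice without the transgene. Tissue was taken at weeks 6, 8, 10 and 12 of age, which in the tumor mice mark hyperplasia, adenoma, early carcinoma and late carcinoma. Each of the 8 groups held 3 libraries, 24 in all. The MMTV promoter drives the polyoma middle T oncogene mainly in the mammary epithelium, and the early lesions still lie within normal gland, while the histology of the study described the carcinomas as mostly tumor cells with few stromal and muscle cells. The methods give 3 mice of each genotype per week, so the libraries of a group come from different animals. The spread between these libraries mixes differences between animals with those of sequencing lane and replicate number, which the main fits did not separate.

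MicroRNAs are short RNAs that pair, mainly through a stretch near their 5′ end called the seed, with sites in messenger RNAs and lower the output of those messages. miR-193b and miR-365 are processed from neighbouring hairpins and are known for their rise during brown fat cell differentiation, and miR-193b also for restraining growth in breast cancer cells. miR-378 is known for a part in energy metabolism in fat cells, skeletal muscle and heart. The mammary gland is an epithelial tree set in a fat pad, so fat cells make up much of a normal gland and less of an advanced tumor. In such whole tissue, fewer cells of a type and less RNA per cell cannot be told apart.

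The sequences show what the count table can and cannot separate. Mature sequences from RefSeq (GRCm38.p6) are given 5′ to 3′ with the seed, bases 2 to 8, in capitals. The first pair is shown because both miRNAs carry the same seed and have rows of their own, the third because 2 hairpins give the same molecule.
mmu-miR-193b-3p: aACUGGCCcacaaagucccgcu
mmu-miR-193a-3p: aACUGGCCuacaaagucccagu
mmu-miR-365-3p: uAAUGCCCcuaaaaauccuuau
The other arms of the 2 miR-365 hairpins are shown next because they are where the copies differ.
mmu-miR-365-1-5p: aGGGACUUuugggggcagaugug
mmu-miR-365-2-5p: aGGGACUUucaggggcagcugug

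Counted from 1 at the 5′ end of miR-193b-3p, miR-193a-3p differs by C9U, G20A and C21G, so that 19 of 22 bases are the same and the seed is untouched. Among 1679 mature mouse miRNAs of the reference sequences, miR-193a-3p was the single other one with this seed, and no other one shared the seed of miR-365-3p. The 5′ arms of the miR-365 hairpins differ by U10C, G11A and A19C, counted from the 5′ end of miR-365-1-5p. On the mm9 assembly the hairpin of Mir193b lies at chr16:13449616-13449694 and that of Mir365-1 at chr16:13453933-13454019, both on the plus strand with 4238 bases between them. Their relatives Mir193, which encodes miR-193a, at chr11:79525471-79525536 and Mir365-2 at chr11:79539902-79540013 form a second pair on the plus strand, 14365 bases apart. None of these 4 hairpins overlaps another annotated gene. The table has 1 row each for mir-193b, mir-193 and mir-365, so the 2 arms of a hairpin and the 2 loci of miR-365 cannot be told apart, while the clusters can be compared through miR-193b and miR-193.

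Total counts ranged from 1626022 to 3931375 in the normal libraries and from 1032241 to 2213972 in the tumor libraries, and the members were counted 253 to 72780 times in a library, well above the 3 counts taken as the detection floor. Levels are given as CPM, read counts scaled to the size of the library after TMM normalization. Each group had libraries on both sequencing lanes. Epithelial miRNAs, such as the miR-200 family, summed to 13770 to 26468 CPM in normal glands and 55934 to 97180 CPM in tumors, and stromal ones, such as miR-143 and miR-145, to 158602 to 276054 CPM and 70027 to 136935 CPM. Muscle miRNAs set a few libraries apart: the summed level of miR-1, miR-133a, miR-133b, miR-206, miR-208a, miR-208b and miR-499 was 90.5 to 89375 CPM in normal glands (median 526 CPM) and 40.8 to 18080 CPM in tumors (median 339 CPM). It exceeded 5000 CPM in 7 libraries, namely normal week 6 replicates 1 and 2, normal week 10 replicate 3, normal week 12 replicate 1, tumor week 6 replicates 1 and 2 and tumor week 10 replicate 3, and reached at most 2466 CPM in the other 17. miR-208a, a heart muscle miRNA, was at 0 in all 24 libraries. The table holds miRNAs alone, and the mRNA data of the study were not analysed here, so the libraries were not checked against fat cell genes.

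miR-378 was lower in tumors, miR-365 slightly lower, and miR-193b was not. Averaged over the 4 weeks, miR-378 was 2.30-fold lower in tumors than in normal glands and miR-365 was 1.30-fold lower, while the estimate for miR-193b was 1.28-fold higher and did not pass the test. Of the 237 miRNAs tested in this comparison, 85.7% passed the threshold of 0.05 on the adjusted p-value, 46.8% as lower and 38.8% as higher in tumors, so that 2 of 3 members past it is no more than the share among all miRNAs. Ordered from the most reduced in tumors, miR-378 took place 28 of 237, miR-365 place 106 and miR-193b place 150. The 3 members thus lay apart in this order, from near its low end to past its middle, rather than together.

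**Figure D1:**
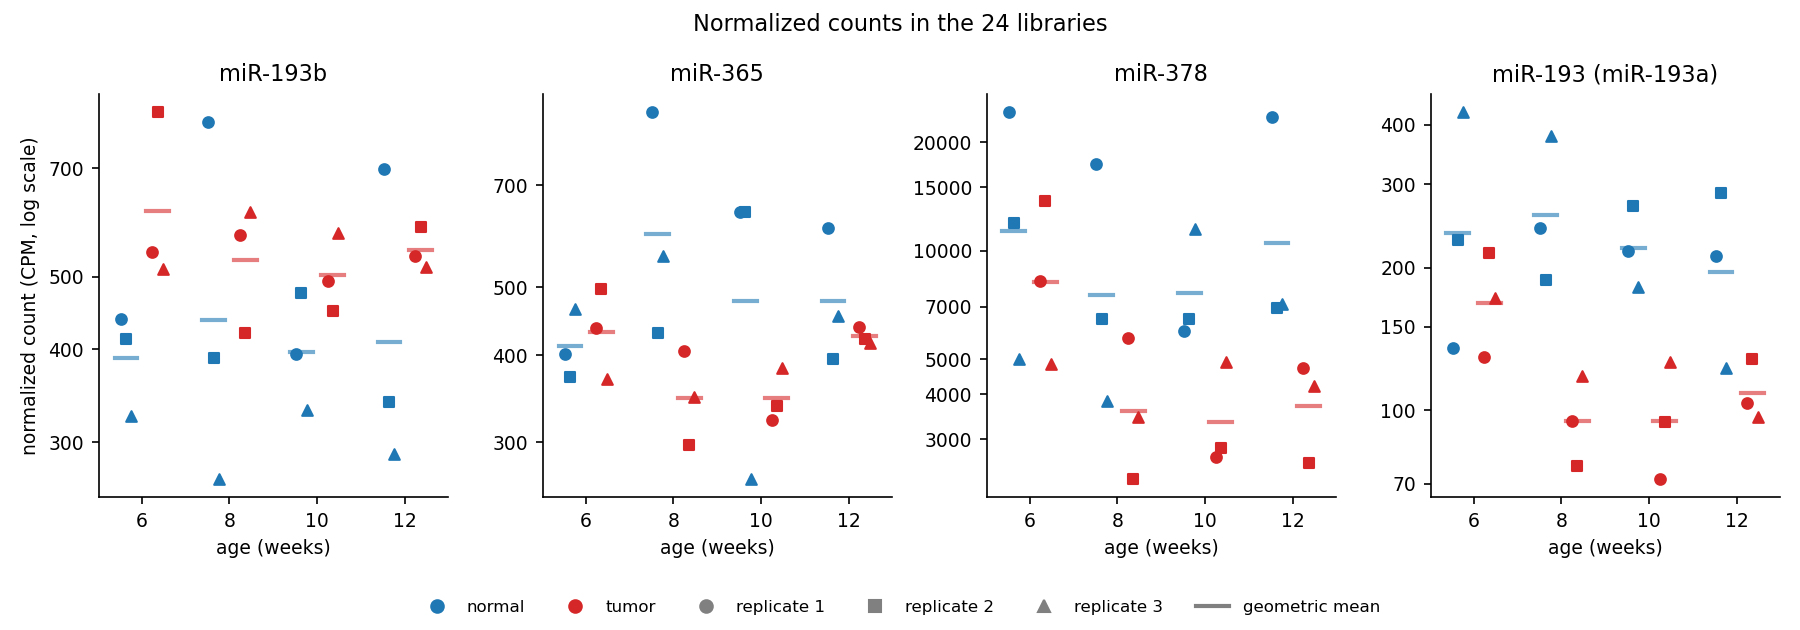
Normalized level (CPM after TMM, log axis) of each member and of mir-193, the relative of mir-193b, in every library, by week and genotype, where points are libraries and bars are geometric means of the groups (n = 3). miR-378 tumor points lie below all normal points at weeks 10 and 12, miR-193b tumor points lie above all normal points at week 6, and miR-365 tumor points lie below all normal points at week 8.

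miR-378 was the most abundant member, with 3839 to 24306 CPM in normal glands (median 7044 CPM) and 2328 to 13750 CPM in tumors (median 4464 CPM). It made up 0.411% to 2.64% of all counts in a normal library and 0.192% to 1.41% in a tumor library, and ranked 10 to 34 and 12 to 49 among all miRNAs of the library. At week 6 its level was 8249, 13749.5 and 4849 CPM in the 3 hyperplasias and 24306, 11951 and 5022 CPM in the normal glands, and the groups overlapped widely. At week 8 it was 5720.2, 2328 and 3469.6 CPM in adenomas and 17468, 6452 and 3839 CPM in normal glands, with 1 tumor above the lowest normal library. At week 10 the early carcinomas had 2677, 2840.3 and 4917 CPM and the normal glands 5985, 6459 and 11537 CPM. At week 12 the late carcinomas had 4719, 2576 and 4210.4 CPM and the normal glands 23582, 6953 and 7135 CPM. From week 10 on, therefore, every tumor library lay below every normal library, as it did for 31.6% of all tested miRNAs at week 10 and 28.7% at week 12.

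The group means of miR-378 at week 12 were 3835 ± 1120 CPM in tumors and 12556 ± 9549 CPM in normal glands (SD, n = 3), and at week 10 they were 3478 ± 1249 CPM and 7994 ± 3078 CPM. The log2 fold changes, tumor over normal, were -0.62 (SE 0.57) at week 6, -1.34 (SE 0.61) at week 8, -1.21 (SE 0.32) at week 10 and -1.72 (SE 0.52) at week 12, with adjusted p-values of 0.353, 0.115, 0.0155 and 0.0287 (quasi-likelihood test of edgeR, Benjamini-Hochberg adjusted). Among all miRNAs this test called 58.6%, 35.4%, 60.3% and 50.6% at weeks 6, 8, 10 and 12, and 29.5%, 13.5%, 27.4% and 21.5% as lower in tumors. Same-numbered libraries deviated together at weeks 6, 8 and 10, and with the replicate number as a block miR-378 also passed at week 8 (-1.11, adjusted p = 0.00531, edgeR), where 131 miRNAs passed in place of 84 and 28.7% of all were called lower. Averaged over weeks the log2 fold change was -1.20 (SE 0.31, adjusted p = 0.00147 by the same test), and the tumor library was below the same-numbered normal library of its week in 11 of 12 cases. For 21.1% of all tested miRNAs it was below in all 12, and the share with 11 or more was not counted. The calls at single weeks rest on few libraries: with each library left out in turn, 4 of 6 fits passed at week 10 (log2 fold changes -1.53 to -0.93) and 3 of 6 at week 12 (-2.03 to -0.88). The call at week 10 was lost without tumor replicate 1 (-1.06, adjusted p = 0.0529, edgeR) or 2 (-1.08, adjusted p = 0.0560), and that at week 12 without tumor replicate 1 (-1.97, adjusted p = 0.0519), 2 (-1.35, adjusted p = 0.102) or 3 (-1.80, adjusted p = 0.0706). Without normal replicate 1 at every week the average was -0.67 (adjusted p = 0.0174), and the differences at weeks 6 and 8 were 0.070 and -0.39.

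The level of miR-378 moved with that of the muscle miRNAs. In the 4 normal libraries with over 5000 CPM of muscle miRNAs it was 11537 to 24306 CPM (median 17766 CPM), against 3839 to 17468 CPM (median 6456 CPM) in the other 8. In tumors it was 4917 to 13750 CPM (median 8249 CPM) in the 3 libraries over that level and 2328 to 5720 CPM (median 3470 CPM) in the other 9. The medians were thus higher in libraries rich in muscle miRNAs, while the ranges overlapped in both genotypes. Across the 24 libraries the log2 levels of miR-378 and of the muscle sum had Pearson's r = 0.71, and r = 0.64 for deviations from the 8 group means, as a description over libraries that also share genotype and lane. The corresponding values were 0.09 and 0.26 for miR-193b and -0.09 and -0.29 for miR-365. Within the 12 normal and the 12 tumor libraries r was 0.73 and 0.69 for miR-378, 0.15 and 0.48 for miR-193b, and -0.54 and 0.60 for miR-365, which thus ran against the muscle sum in normal glands and with it in tumors. In the 17 other libraries miR-378 was 1.84-fold lower in tumors on average (log2 fold change -0.88, SE 0.32, edgeR), with replicate 3 alone kept at week 6. At week 12 the value there was -0.88 (adjusted p = 0.0485, edgeR's quasi-likelihood test), which is the fit without normal replicate 1. The part of other cell types in this difference was not tested.

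**Figure D2:**
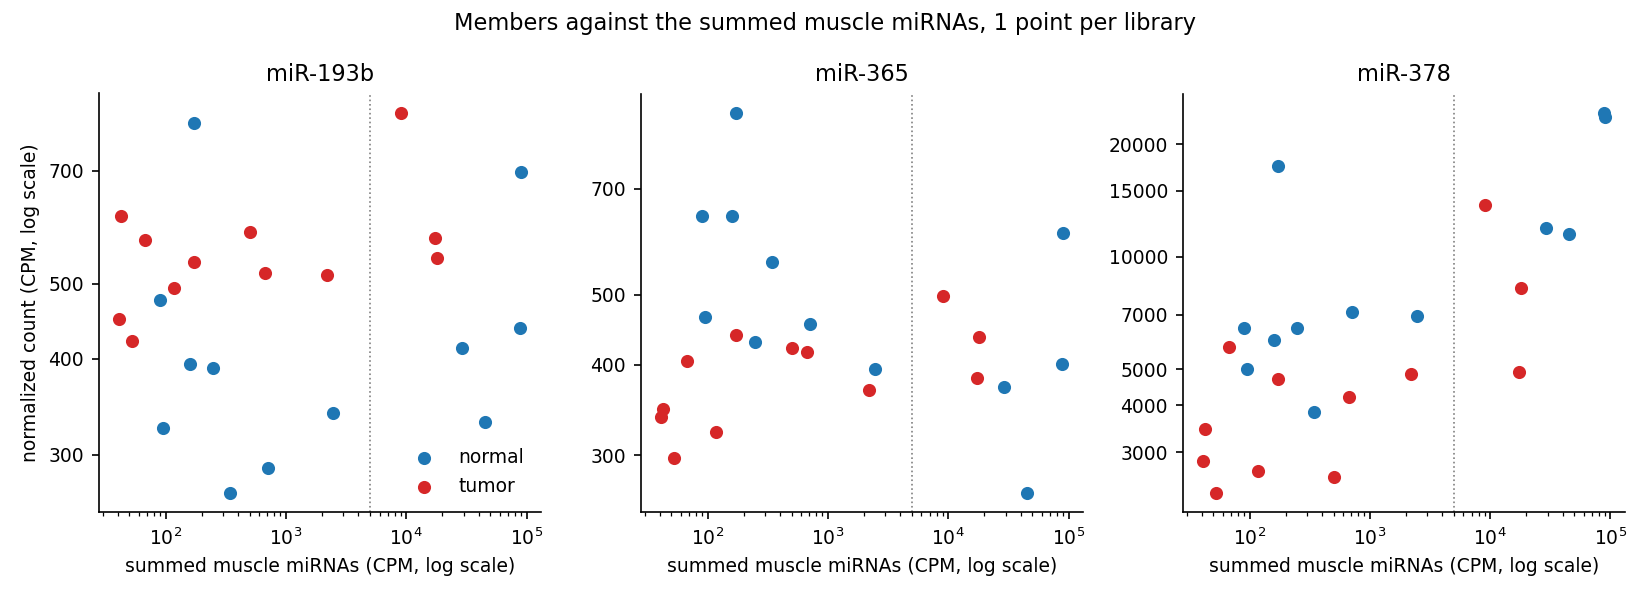
Level of each member (CPM after TMM, log axis) against the summed level of the muscle miRNAs (CPM, log axis) in the 24 libraries, tumor and normal marked apart, with a dotted line at 5000 CPM. Over all 24 libraries the miR-378 points rise from left to right (r = 0.71 on the log2 scale), while those of miR-193b (r = 0.09) and miR-365 (r = -0.09) do not. Among the tumor points alone r was 0.69 for miR-378, 0.48 for miR-193b and 0.60 for miR-365. Among the normal points it was 0.73, 0.15 and -0.54.

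miR-193b lay between 268 and 808 CPM in normal glands (median 391 CPM) and between 421 and 833 CPM in tumors (median 536 CPM). At week 6 it was 539, 833 and 513 CPM in hyperplasias and 438, 412 and 325 CPM in normal glands, so that the groups did not overlap, as for 34.2% of all miRNAs with tumors above. At week 8 it was 569, 421 and 612 CPM in adenomas and 808, 389 and 268 CPM in normal glands, where 1 normal library was the highest of all. At week 10 the levels were 493, 450.0 and 572 CPM in early carcinomas and 394, 476 and 331 CPM in normal glands. In late carcinomas they were 533, 584 and 516 CPM, and in the normal glands of week 12 they were 698, 340.1 and 289 CPM. The groups overlapped at weeks 8, 10 and 12, each time through 1 normal library.

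All 4 tumor groups had a higher mean log2 level of miR-193b than all 4 normal groups, but the steps between neighbours in the order were within the SD of the groups. The order ran from tumors of week 6 through tumors of weeks 12, 8 and 10 to normal glands of weeks 8, 12, 10 and 6. At week 6 the means were 629 ± 178 CPM in tumors and 392 ± 59.4 CPM in normal glands (SD, n = 3). The log2 fold changes were 0.68 (SE 0.25) at week 6, 0.06 (SE 0.45) at week 8, 0.32 (SE 0.20) at week 10 and 0.29 (SE 0.34) at week 12, and the adjusted p-values by edgeR's quasi-likelihood test were 0.0485, 0.901, 0.198 and 0.506. The call at week 6, where 29.1% of all miRNAs were called higher in tumors, was lost whichever of the 6 libraries was left out (adjusted p = 0.0512 to 0.116, edgeR) and under 5 other treatments of the counts, including the replicate number as a block (0.66, adjusted p = 0.0622). With the size factors of DESeq2 the value at week 8 was -0.033. Averaged over weeks the log2 fold change was 0.36 (SE 0.17, adjusted p = 0.0564). This value depended on which libraries were used and on how they were scaled. With DESeq2 size factors the average was 0.27 (adjusted p = 0.169, edgeR's quasi-likelihood test). The part of scaling in the values from fewer libraries was not tested. Without normal replicate 1 at every week the average was 0.62 (adjusted p = 4.33e-04, edgeR) and the value at week 12 was 0.79 (adjusted p = 0.0327). Without normal replicate 3 the average was 0.13, and without any other replicate number of either genotype it was 0.21 to 0.29. None of these passed. The average was 0.09 (SE 0.24) within the first sequencing lane and 0.71 (SE 0.17, adjusted p = 0.0104) within the second. The lanes hold weeks and replicates in unequal shares, and the difference between them was not tested.

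miR-365 was as abundant as miR-193b, with 266 to 892 CPM in normal glands (median 460 CPM) and 297 to 497 CPM in tumors (median 394 CPM). At week 6 it was 437, 497 and 369 CPM in hyperplasias and 402, 372 and 466 CPM in normal glands, which overlapped. At week 8 it was 405, 297 and 348 CPM in adenomas and 892, 429.9 and 555 CPM in normal glands, and the groups did not overlap, as for 19.8% of all miRNAs with tumors below. At week 10 the levels were 323, 338 and 383 CPM in early carcinomas and 642, 642 and 266 CPM in normal glands, where 1 normal library was the lowest of all. The late carcinomas of week 12 had 439, 422 and 417 CPM and the normal glands 609, 394 and 455 CPM. Tumor libraries were close together, with the 3 late carcinomas within 1.05-fold of each other, while normal libraries spread up to 2.42-fold at week 10.

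No single week passed the test for miR-365 without a replicate block. The log2 fold changes were 0.07 (SE 0.20) at week 6, -0.89 (SE 0.35) at week 8, -0.59 (SE 0.35) at week 10 and -0.20 (SE 0.24) at week 12, with adjusted p-values of 0.752, 0.0804, 0.165 and 0.504 by edgeR's quasi-likelihood test. With the replicate number as a block the value at week 8 was -0.81 (adjusted p = 0.0244), which passed. The average over weeks, -0.38 (SE 0.14, adjusted p = 0.0188), passed it. Without normal replicate 1 at every week the average was -0.23 (adjusted p = 0.136), and within the lanes it was -0.53 (SE 0.22, adjusted p = 0.0652) and -0.38 (SE 0.26, adjusted p = 0.225). In the order of the 8 group means, normal glands of weeks 8, 10 and 12 stood first and tumors of weeks 8 and 10 last, and the step of 0.24 on the log2 scale from normal glands of week 6 to tumors of week 8 was the only one larger than the SD of its groups.

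The members also differed in how much they varied between libraries of a group. The SD of the log2 level within groups was 0.98 in normal glands and 0.60 in tumors for miR-378, 0.56 and 0.26 for miR-193b, and 0.49 and 0.17 for miR-365. The medians over all tested miRNAs were 0.40 and 0.31. In tumors, miR-365 was therefore among the steadier miRNAs, at place 36 of 237 from the smallest SD, while miR-378 was at place 206.

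**Figure D3:**
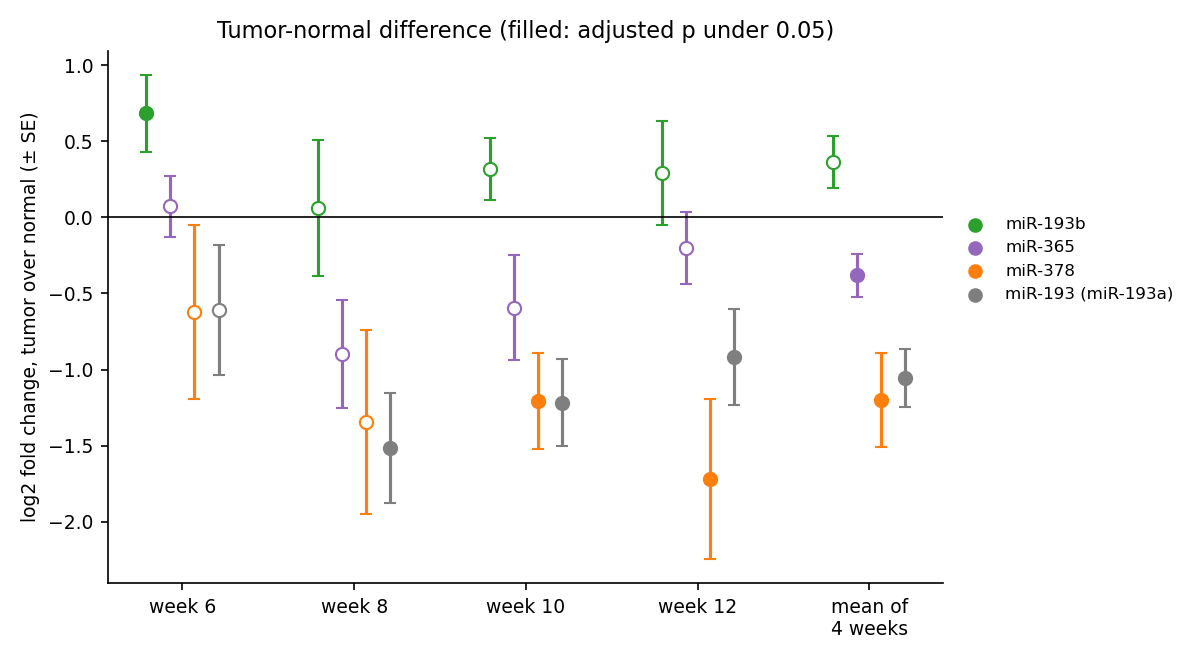
Log2 fold change, tumor over normal, of each member and of mir-193 at each week and averaged over weeks, with bars of 1 SE from edgeR and filled points where the adjusted p is under 0.05. miR-378 and miR-193 lie below 0 at every week, miR-365 lies below 0 from week 8 on, and miR-193b lies above 0 throughout, though close to 0 at week 8, where the sign turns with DESeq2 size factors.

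miR-193, the row for miR-193a and the single listed relative of the members in the table, differed from miR-193b in the comparison of tumors with normal glands. Within the 12 tumors the log2 levels of both ran together (r = 0.75), but not within the 12 normal glands (r = -0.10) or over all 24 libraries (r = -0.27). At week 6 it was 129.6, 215 and 173 CPM in tumors and 135, 229 and 426 CPM in normal glands. At week 8 it was 94.7, 76.4 and 118 CPM in tumors and 242, 189 and 378 CPM in normal glands, and at week 10 it was 71.6, 94.3 and 126 CPM against 217, 270.4 and 182 CPM. The groups did not overlap at weeks 8 and 10, and the tumor library was the lower of each same-numbered pair in 12 of 12 cases, as for 21.1% of all tested miRNAs. At week 12 it was 104, 128 and 96.6 CPM in tumors and 212, 288 and 123 CPM in normal glands. The log2 fold changes were -0.61, -1.51, -1.22 and -0.91 at weeks 6, 8, 10 and 12 (SE 0.43, 0.36, 0.29 and 0.32), with adjusted p-values of 0.248, 0.0164, 0.00950 and 0.0421, and the average was -1.05 (SE 0.19, adjusted p = 5.33e-05, edgeR's quasi-likelihood test). Among these 3 rows, miR-193b thus had the highest average and miR-193 the lowest, with miR-365, whose reads cannot be assigned to 1 of the clusters, in between.

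A ratio of 2 miRNAs within a library does not depend on how the libraries were scaled, and the ratios separated the members most clearly. There were fewer reads of miR-193b than of miR-365 in most normal glands and more in every tumor. The ratio of miR-193b to miR-365 was 1.21 to 1.76 in tumors (median 1.40) and 0.483 to 1.24 in normal glands (median 0.884). At week 6 it was 1.23, 1.67 and 1.39 in tumors and 1.09, 1.11 and 0.697 in normal glands, and at week 8 it was 1.40, 1.41 and 1.76 against 0.906, 0.905 and 0.483. At week 10 it was 1.53, 1.33 and 1.49 in tumors and 0.614, 0.742 and 1.24 in normal glands, and at week 12 it was 1.21, 1.38 and 1.24 against 1.15, 0.863 and 0.636. The normal glands with a ratio above 1, at 1.09 to 1.24, were the 4 with over 5000 CPM of muscle miRNAs. In the other 8 it was 0.483 to 0.906. The 3 tumors over that level had ratios of 1.23 to 1.67, within the range of the other tumors. The part of muscle in this ratio was not tested. The groups did not overlap at any of the 4 weeks, the tumor library was higher in 12 of 12 same-numbered pairs, and 9 tumor libraries exceeded the highest normal library. How often ratios of other miRNAs separate as fully was not counted, while 85.7% of all miRNAs differed on average, in both directions. No share over all ratios therefore stands beside the counts and p-values of the ratios.

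The log2 ratio of miR-193b to miR-365 differed between tumors and normal glands by 0.75 (SE 0.14), or 1.69-fold, averaged over weeks, in a two-sided exact permutation test over the 160000 relabellings within weeks (p = 1.25e-05, the smallest p these can give, and 3.75e-05 adjusted over the 3 pairs of members). The differences at the 4 weeks were 0.59, 1.05, 0.81 and 0.57, and within the lanes they were 0.61 and 1.06. The ratio of miR-193b to miR-378 differed by 1.48 (SE 0.23), or 2.79-fold, in 12 of 12 pairs (adjusted p = 3.75e-05, exact permutation test). The ratio of miR-365 to miR-378 differed by 0.73 (SE 0.32), or 1.65-fold, in 10 of 12 pairs (p = 0.0303, exact permutation test). The last of these rested on few libraries, since without the 7 libraries rich in muscle miRNAs it was 0.29 (adjusted p = 0.147, permutation test), within the second lane 0.32 (adjusted p = 0.417) and of 6 fits without 1 replicate it passed in that without normal replicate 3 alone (0.50 to 0.88). The ratios of miR-193b to miR-365 and to miR-378 passed under each of these.

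**Figure D4:**
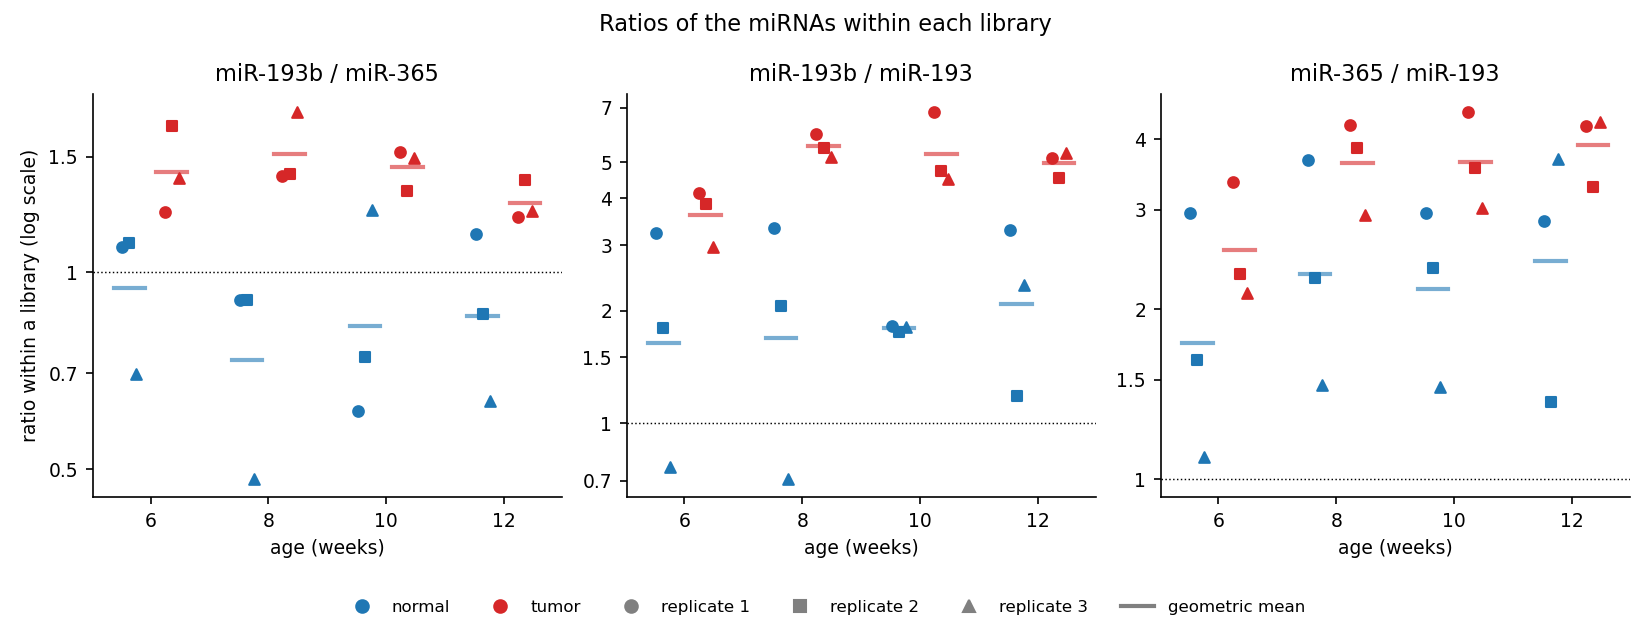
Ratio of read counts within each library (log axis) of miR-193b to miR-365, miR-193b to miR-193 and miR-365 to miR-193, by week and genotype, with 1 point per library, bars for geometric means (n = 3) and a dotted line at 1. The ratio of miR-193b to miR-365 runs from 1.21 to 1.76 in tumors and from 0.483 to 1.24 in normal glands, with no overlap within a week.

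Pairs with miR-193 were compared in the same way, a choice made after seeing the data, with p-values adjusted over 6 pairs. The ratio of miR-193b to miR-193 was 2.96 to 6.82 in tumors (median 4.92) and 0.708 to 3.33 in normal glands (median 1.81). It differed by 1.41 on the log2 scale (SE 0.26), or 2.66-fold, in 12 of 12 pairs (adjusted p = 5e-05, exact permutation test). The ratio of miR-365 to miR-193 differed by 0.66 (SE 0.21), or 1.58-fold, also in 12 of 12 pairs (adjusted p = 0.00411, exact permutation test). No difference was detected in the ratio of miR-378 to miR-193, at -0.07 (SE 0.43, p = 0.875, exact permutation test). Whether neighbouring hairpins usually differ as much as miR-193b and miR-365 was looked at over the 81 pairs of tested miRNAs on 1 strand within 10000 bases, also chosen after seeing the data. The absolute difference between their average log2 fold changes had a median of 0.37, and it was 0.74 for miR-193b and miR-365, with 13 pairs (16%) further apart. Most of these pairs lie within the miR-297, miR-466, miR-467 and miR-669 families. There the same rows recur in several pairs and many have several copies, such as miR-669a with 12. The pairs are therefore not independent, and the share is a description that these families raise.

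The tumor-normal difference was not shown to change with stage for any member. The test of any variation between weeks gave adjusted p-values of 0.971 for miR-193b, 0.938 for miR-365 and 0.971 for miR-378 (edgeR's quasi-likelihood test), and 0% of all miRNAs passed it, although 9 had an unadjusted p below 0.05. From week 6 to week 12 the difference moved by -1.09 for miR-378, -0.38 for miR-193b and -0.26 for miR-365 on the log2 scale (adjusted p = 0.464, 0.624 and 0.699, same test), where 0.422% of all miRNAs passed. Within tumors the level of miR-378 at week 12 minus that at week 6 was -1.22 (SE 0.62, adjusted p = 0.215), against -0.13 (adjusted p = 0.907) within normal glands. For miR-193b the values were -0.21 in tumors and 0.17 in normal glands, and for miR-365 they were -0.03 and 0.23, none past the threshold. Of all miRNAs, 7.59% passed between these weeks in tumors and 21.1% in normal glands.

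The other miRNAs known for a part in fat did not move in 1 direction either. Of 14 listed miRNAs that promote adipogenesis, all of them tested, 5 were higher in tumors on average, 6 were lower and 3 did not pass (median log2 fold change -0.27, against -0.15 over all miRNAs). The highest were miR-148a (1.82) and miR-30c (0.84), and the lowest were miR-335 (-1.45) and miR-143 (-1.22), the last of which is also a marker of stroma. Of 4 listed miRNAs that promote brown or beige fat, miR-182 was higher (2.02), which is also an epithelial marker, and 3 were lower, miR-196a (-3.36), miR-455 (-0.85) and miR-203 (-0.70). Of 11 that restrain adipogenesis or browning, 5 were higher, led by miR-27b (1.93) and miR-130b (1.33), 5 were lower and 1 did not pass (median 0.17). The lowest of these were miR-133b (-3.16) and miR-133a (-2.91), both muscle markers. Against the 85.7% of all miRNAs that passed, these counts are no more than a description.

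Marker miRNAs of the cell types moved with genotype beside the members. Of 9 epithelial markers 8 were higher in tumors (median 2.04), all 5 stromal markers were lower (median -1.22), all 3 tested muscle markers were lower, 4 of 6 tested blood and leukocyte markers were lower, and miR-126, the endothelial marker, was lower by -1.25. The summed level of blood and leukocyte markers was 9478 to 36464 CPM in normal glands and 3872 to 15426 CPM in tumors, and miR-126 was at 20497 to 37462 CPM and 6568 to 18252 CPM. In the blood and leukocyte list miR-486, also a miRNA of muscle, had the most counts (627178), followed by miR-451 (124412). In each genotype the libraries rich in muscle miRNAs had the highest of these sums. The leukocyte markers miR-142 (-0.13) and miR-155 (0.17) did not pass. miR-223 was at 0 in all 24 libraries, and miR-206, miR-208b and miR-499 had too few counts to be tested. The part of these shifts in the values of the members was not tested.

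The miRNAs whose levels ran most like those of the members over all libraries differed from member to member. Over the 24 libraries, which share genotype, depth and lane, the log2 level of miR-378 correlated most with miR-328 (r = 0.83), miR-107 (r = 0.82), miR-29c (r = 0.77), miR-486 (r = 0.77), a miRNA of red blood cells and muscle, and miR-483 (r = 0.75), with the muscle miRNA miR-1 next (r = 0.73). miR-365 ran most like miR-215 (r = 0.71), miR-615 (r = 0.69), the endothelial miR-126 (r = 0.69), miR-150 (r = 0.66), a lymphocyte miRNA, and miR-664 (r = 0.64). miR-193b ran most like miR-30e (r = 0.67), miR-30c (r = 0.66), miR-192 (r = 0.64), miR-1982 (r = 0.61) and miR-1964 (r = 0.51). Its cluster neighbour miR-365 came at place 73 (r = 0.27), although the deviations of both from their group means had r = 0.63. Both thus ran together within groups more than across them. So did miR-193b and miR-378, with r = 0.22 over all libraries and 0.76 for the deviations. For miR-365 and miR-378 the values were 0.41 and 0.27. Within the 12 tumors miR-193b had r = 0.02 with miR-30e, -0.20 with miR-30c, 0.04 with miR-192, 0.66 with miR-1982 and 0.05 with miR-1964. For the partners named for miR-365 and miR-378 it ran from 0.24 to 0.82.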

How the data were processed

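Small RNA was sequenced from 12 tumors and 12 normal mammary glands. The authors trimmed the reads, aligned them with Bowtie, counted those overlapping each miRBase miRNA and deposited raw counts for 510 miRNAs by name. The labels name mm9 as the build, while the methods of the paper name mm10. Groups, weeks, replicate numbers and lanes were taken from the labels. The miRNAs kept by filterByExpr (237) were tested with edgeR 4.0.16 in R 4.3.3 (TMM, quasi-likelihood, Benjamini-Hochberg adjustment, threshold 0.05), week by week as in the paper, and in 1 fit of 24 libraries for the average, the interactions and weeks within a genotype. The SE is the log2 fold change divided by the square root of F. CPM are TMM-scaled, and log2 levels used a prior count of 2. No source says what a replicate number marks. Deviations from group means correlated in same-numbered tumor and normal libraries above 0.1 in 9 of 9 pairs at weeks 6, 8 and 10 (r = 0.20 to 0.82) but in 1 of 3 at week 12 (lowest 0.031). The means were 0.41 over all 12 pairs and -0.18 over libraries of unlike number. The latter is not a separate check, because deviations from a group mean cancel out over its 3 libraries. Single unlike pairs also exceeded same-numbered ones, such as r = 0.59 against 0.49 at week 10. Blocked values therefore stand only beside results of weeks 6, 8 and 10 where they change a call. Ratios were tested by exact permutation within weeks (Python 3.11.15 with numpy 2.4.6). The 3 count floor was 0.763 to 2.91 CPM and covers counting error only. Named miRNAs were the members, their listed relative, the 2 highest and 2 lowest past the threshold in each list, and the 5 most correlated with each member. Members and lists were chosen with earlier results of these data known. Code was tested on simulated data.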

Additional observations from a re-analysis of the deposited data

How the results depend on the processing

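Of 486 values of members and ratios under alternatives, 421 kept direction and side of the threshold, 28 lost the threshold, 14 gained it and 23 changed sign. With library sizes alone, which moved the median of all miRNAs from -0.12 to -0.26 at week 6 and from -0.19 to -0.01 at week 12, miR-193b at week 6 was 0.55 (adjusted p = 0.102), miR-365 at week 6 was -0.069, its interaction 0.048, and miR-193b and miR-365 in normal glands from week 6 to 12 were -0.13 and -0.076, with 0 calls between weeks. With DESeq2 size factors or Wald test miR-193b at week 8 was -0.033 and miR-365 in tumors from week 6 to 12 was 0.11, and by the Wald test miR-365 (-0.98) and miR-378 (-1.44) passed at week 8, with 3 interaction and 30 tumor calls. At week 6 miR-193b was 0.71 (adjusted p = 0.0588) without a filter, which gave 10 tumor calls, 0.68 (0.104) by the exact test and 0.68 (0.0972) in a single fit, in which miR-365 at week 8 was -0.84 (0.0211) and miR-378 at week 10 was -1.20 (0.101). With at least 10 counts the average of miR-193b was 0.41 (0.0374), with 2 interaction and 28 normal calls, and with lane as a covariate it was 0.39 (0.0299), miR-365 in tumors was 0.032, miR-378 in normal glands 0.091, with 2 interaction calls. Within lane 1 the average of miR-365 was -0.53, within lane 2 the averages were 0.71, -0.38 and -0.65 for miR-193b, miR-365 and miR-378, and the ratio of miR-365 to miR-378 was 0.32. Without the 7 libraries rich in muscle miRNAs, a choice made after seeing the data, miR-193b at week 12 was 0.79 (0.0327), the same fit as without normal replicate 1. miR-365 at week 10 was -1.0 (3.03e-04). That fit lacks replicate 3 of both genotypes, so its smaller p-value is no gain in evidence over the fit of all libraries. At week 6 replicate 3 alone is kept in each genotype, where the interactions of miR-193b and miR-365 were 0.030 and 0.22 and that ratio was 0.29. The causes of these changes were not tested. The check of pairing held for the pairs of weeks 6, 8 and 10 and not for week 12, so the blocked averages and interactions mix both. With the replicate number as a block the results were 0.66 (0.0622) at week 6 and 0.42 (0.0281) on average for miR-193b, -0.81 (0.0244) for miR-365 and -1.11 (0.00531) for miR-378 at week 8, with 131 calls at week 8 and 2 interaction calls, and no other call of a member or ratio changed.

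Leaving out 1 replicate at a time, miR-193b ranged over 0.50 to 0.89 (week 6), -0.16 to 0.73 (week 8), 0.040 to 0.79 (week 12), 0.13 to 0.62 (average), -0.56 to 0.00313 (interaction) and, from week 6 to 12, -0.16 to 0.40 in normal glands and -0.23 to 0.082 in tumors. miR-365 ranged over -1.14 to -0.47 (week 8), -0.98 to -0.42 (week 10), -0.55 to -0.23 (average) and -0.051 to 0.17 (tumors), and miR-378 over -1.02 to 0.070 (week 6), -1.76 to -0.39 (week 8), -1.53 to -0.93 (week 10), -2.03 to -0.88 (week 12) -0.23 to 0.066 (normal glands), -1.52 to -0.48 (tumors) and -1.29 to -0.25 (interaction). Calls numbered 78 to 150 (week 6), 50 to 81 (week 8), 74 to 120 (week 12), 0 to 2 and 0 to 1 (interactions), 20 to 56 (normal glands) and 0 to 29 (tumors). Ratios ranged over 0.64 to 0.82 (miR-193b to miR-365), 1.32 to 1.59 (miR-193b to miR-378) and 0.50 to 0.88 (miR-365 to miR-378). Depth did not limit the members, which had at least 253 counts.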
